A study of Mus musculus with 2 samples.

Results

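The 300 widest distal H3K27ac regions found in Gata2 KO cells alone were described in mouse MA9 leukaemia cells, the myeloid leukaemia driven by the MLL-AF9 fusion. They were taken from the 37302 peaks of the KO library. Peaks on chromosomes 1 to 19 were kept when they lay over 2000 bp from both ends of every protein-coding gene (25238 peaks, leaving out 6 chromosome starts described below). Of these, 7101 had no peak of the Gata2 f/f library within 1000 bp, or 28.1% of the distal KO peaks. The 300 widest of the 7101, chosen by peak width, are the regions described here. The same rule turned round gave 4543 of 22567 distal f/f peaks without a KO peak near, or 20.1%. Width, the distance to genes and the missing f/f peak chose the regions and are therefore given as descriptions.

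Leukaemia cells came from bone marrow of primary animals and carried the genotype Gata2 f/f (1 library) or Gata2 -/- (Gata2 KO, 1 library). Per the labels, cells were transduced with Cre or with the control vector MIT, sorted for GFP and tdTomato, and kept for 7 to 9 days in medium with SCF, IL-3 and IL-6, then used for ChIP. The labels do not say which vector each library received, how many animals gave cells, or whether both libraries go back to the same animal. With 1 library per genotype no difference could be tested, each comparison describes these 2 libraries, and Wilson intervals cover counting error only. Of 10 markers of myeloid leukaemia cells, 9 had a peak in the gene or within 1 kb of it in both lists, among them Ptprc, Kit, Spi1, Hoxa9, Meis1 and Mpo. Fcgr3 had none in either. Of 15 markers of B, T, erythroid, epithelial, stromal and endothelial cells, 8 had such a peak in KO and 10 in f/f. The 8 were Pax5, Cd3d, Cd4, Krt8, Cdh1, Col1a1, Pdgfra and Cdh5, which were marked in f/f too, and Ebf1 and Epcam were marked in f/f only. Cd3e, Epor and Hba-a1 were among the 5 with none in either list. The share of all protein-coding genes with such a peak is not reported here, so these marker counts have no baseline. The part of other cells in the results was not tested.

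The libraries stood apart in ways that go with genotype. Xist was marked at an end in f/f and unmarked in KO, whereas Uty, Kdm5d and Eif2s3y on the Y chromosome were marked in KO and unmarked in f/f. The left-out starts of chromosomes 6, 7, 18 and 19 held 217 KO and 5 f/f peaks, and those of chromosomes 4 and 13 held 3 KO and 43 f/f peaks. Sex chromosomes and these starts hold none of the 300 regions, and the part of such differences elsewhere in the genome was not tested. Read depth is unknown.

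H3K27ac is laid down by the acetyltransferases p300 and CBP at active promoters and enhancers, and distal H3K27ac is widely used to map enhancers. Wide stretches of the mark often surround genes that define a cell's identity. GATA2 binds GATA sequences in enhancers of haematopoietic stem and progenitor cells, often beside RUNX1, ERG, TAL1 and PU.1. An H3K27ac peak list does not show where GATA2 was bound.

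Few of the 300 regions held a known start of transcription. A RefSeq transcript start lay in 8 of them (2.67%, interval 1.36 to 5.17%), 6 with a lncRNA start and 2 with a start of a protein-coding gene. Among the 2841 distal KO peaks that were as wide but had an f/f peak within 1000 bp, 10.6% held a start (9.48 to 11.7%), and among the other 6801 KO-alone distal peaks 1.54% did (1.28 to 1.87%). The 2 protein-coding starts were internal ones of Hrh1, the histamine H1 receptor gene, and of Rab15, a small GTPase gene of endosomal traffic. The 250 bases before 4 of these starts are shown, those of both protein-coding genes and, for the lncRNAs, 1 with a GATA match and 1 with no match. The 2 lncRNA starts are that of Gm31603, in a region 134.4 kb from Irf2bp2, and the middle one of 3 starts of Gm41253. All run 5' to 3' on the gene's strand in RefSeq's GRCm38.p6, the assembly of mm10, and end at the base before the start. Capitals mark matches on either strand. The GATA motif was searched as AGATAA and as TGATAA, the C/EBP motif as TTGCNNAA, the ETS motif as AGGAAGT, the RUNX motif as TGTGGT, the AP-1 motif as TGANTCA and the E-box as CAGCTG, and no marked match overlaps another.
Hrh1, chr6:114458272-114458521, plus strand: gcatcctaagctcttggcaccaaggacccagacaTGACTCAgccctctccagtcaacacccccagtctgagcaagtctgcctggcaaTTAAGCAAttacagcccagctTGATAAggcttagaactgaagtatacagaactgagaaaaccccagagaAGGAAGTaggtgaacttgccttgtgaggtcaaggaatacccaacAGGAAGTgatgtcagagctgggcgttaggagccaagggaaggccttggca
Rab15, chr12:76813857-76814106, minus strand: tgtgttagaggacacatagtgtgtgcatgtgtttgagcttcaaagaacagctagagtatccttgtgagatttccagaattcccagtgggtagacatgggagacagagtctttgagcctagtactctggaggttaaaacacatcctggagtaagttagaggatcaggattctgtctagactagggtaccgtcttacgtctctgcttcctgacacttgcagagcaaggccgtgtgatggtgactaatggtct
Gm31603, chr8:126729751-126730000, minus strand: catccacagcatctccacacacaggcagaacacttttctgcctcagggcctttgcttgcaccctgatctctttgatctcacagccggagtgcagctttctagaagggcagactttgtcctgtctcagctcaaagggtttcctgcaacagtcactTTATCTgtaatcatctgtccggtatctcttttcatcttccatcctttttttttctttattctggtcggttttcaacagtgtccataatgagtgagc
Gm41253, chr14:120804314-120804563, minus strand: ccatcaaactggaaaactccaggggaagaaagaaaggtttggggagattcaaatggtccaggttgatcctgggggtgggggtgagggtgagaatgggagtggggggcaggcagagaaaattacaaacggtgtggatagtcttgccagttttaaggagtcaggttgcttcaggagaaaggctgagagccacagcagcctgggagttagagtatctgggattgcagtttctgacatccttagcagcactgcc

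The Hrh1 stretch held 5 matches, namely 1 AP-1, 1 C/EBP, 1 GATA and 2 ETS sequences. The GATA match lay 142 to 137 bases before the start. The Gm31603 stretch held 1 GATA match, 96 to 91 bases before the start, and neither the Rab15 nor the Gm41253 stretch held a match. The regions held 10 starts in all, 3 of them of Gm41253, and 2 of the 10 stretches had a GATA match. Of the 250-base stretches before all 32817 RefSeq starts, 16.6% had a GATA match, 9.57% a C/EBP, 7.69% an ETS, 14.0% a RUNX, 4.46% an AP-1 and 13% an E-box match. A match is only a stretch of letters.

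The Hrh1 region (chr6:114457645-114459954) was one of the stronger calls, with a -log10 p of 16.6 and a 3.15-fold enrichment over background. Fold, -log10 p and -log10 q are the authors' own values for a peak and rank peaks within the KO list only. The Hrh1 region lay inside the gene, 183.3 kb from the nearest f/f peak, in a 746.5 kb stretch of chromosome 6 without an f/f peak. The 7 KO peaks that overlap this stretch can include ones shared with f/f at its ends. Neither end of Hrh1 had a peak within 1 kb in either list. The Rab15 region (chr12:76812728-76814856) was weak, with a -log10 p of 3.36, and Rab15 had its gene-end peak in f/f only.

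Most of the regions were wide and weak. Their widths ran from 1966 to 6335 bp with a median of 2273 bp, and together they covered 722.4 kb of the 6129 kb under KO-alone distal peaks. Their median -log10 p was 4.61, against 9.36 for all KO peaks on chromosomes 1 to 19, and their median fold was 2.53 against 3.08. At or above the list's median -log10 p lay 28 of the 300 (9.33%, interval 6.54 to 13.2%). A -log10 q of at least 5 was reached by 48 (16%, 12.3 to 20.6%), as by 16% of the other KO-alone distal peaks (15.2 to 16.9%), and by 73.5% of the equally wide KO peaks near an f/f peak (71.8 to 75.1%).

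**Figure D1:**
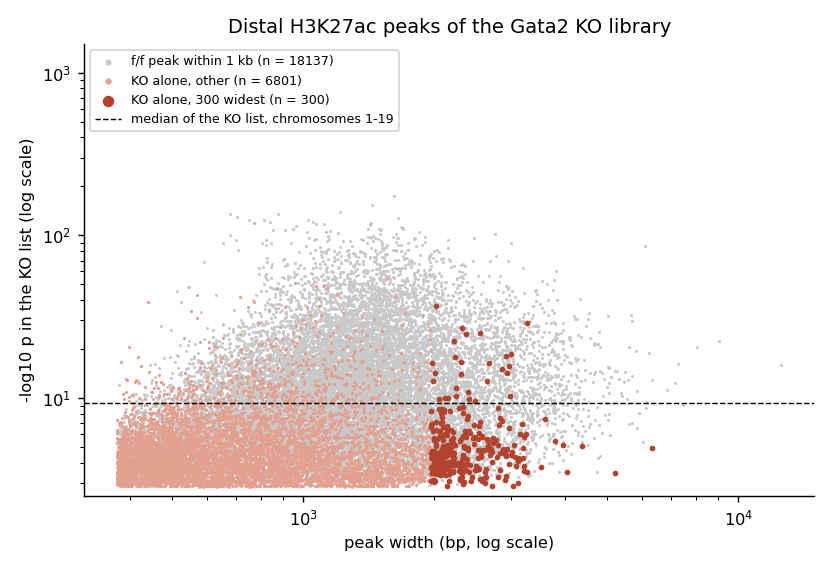
Width (bp, log scale) against -log10 p (log scale) of the 25238 distal peaks of the KO library, in grey those with an f/f peak within 1 kb, in light red the other 6801 found in KO alone and in dark red the 300 widest of these. The dark points start at 1966 bp, and 28 of them lie on or above the dashed line, the list's median of 9.36.

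Being found alone went with weak calls at a given width. Of the distal KO peaks at least 1966 bp wide, 185 of 520 with a -log10 p under 5 were alone (35.6%, interval 31.6 to 39.8%), and 91 of 1048 between 5 and 10 (8.68%). Between 10 and 20, 19 of 931 were alone (2.04%, 1.31 to 3.17%), and at 20 or above 6 of 643 (0.933%, 0.428 to 2.02%). Of all distal KO peaks between 2000 and 3000 bp, 10.7% were alone, and of f/f peaks of that width 8.72%. Among peaks of 3000 bp and more these shares were 4.02% and 3.84%. A width of 1966 bp or more was reached by 301 KO-alone and 217 f/f-alone distal peaks.

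The widest region of all lay inside B4galt6, which encodes a lactosylceramide synthase of glycosphingolipid metabolism. It ran over 6335 bp (chr18:20735775-20742109) with a fold of 1.52 and a -log10 p of 4.92, and its 3954 bp neighbour in the same gene ranked number 5 (chr18:20720401-20724354, fold 2.05, -log10 p 5.17). Both lay in a 42.7 kb stretch without an f/f peak. The 5 KO peaks that overlap it include those that also overlap the f/f peak at either end. The stretch is bounded by peaks found in both lists, one of them at the upper end of B4galt6. Around the widest region, KO peaks covered 12.8 kb of the flanks, counted from 1 to 51 kb on either side, and f/f peaks 2.98 kb.

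Other wide regions lay near genes of varied roles. The second (5199 bp, -log10 p 3.47) was 11.98 kb from Ctdp1, which encodes a phosphatase of RNA polymerase II. The third (4371 bp, 5.11) was 56.2 kb from Wdr75, a gene of ribosome biogenesis, and no other peak of either list lay within 50 kb of it. The sixth, inside the phosphatase gene Ppm1f (3795 bp, 5.42), had 8 f/f peaks within 50 kb, the nearest 2.11 kb away. The seventh lay inside Rcan1, a regulator of calcineurin (3606 bp, 7.42), in a 155.0 kb stretch without an f/f peak. The 7 KO peaks that overlap this stretch can include ones shared with f/f at its ends. The eighth was intergenic, 120.1 kb from the angiogenic factor gene Vegfa (3514 bp, 3.77).

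The fourth lay inside Reep3, with an end of Jmjd1c 39.5 kb away, and is described with the gene lists. The ninth (3278 bp, 25.01 kb from BC048507) had the second highest -log10 p of the 300, 28.8, and was the sole KO peak in a 709.7 kb stretch without f/f peaks. The tenth to fifteenth, 3208 to 3277 bp wide with a -log10 p of 3.52 to 6.06, had as nearest genes Lrmda, Med13l, Fam107b, Slc2a3, Septin7 and Mical2. Med13l encodes a subunit of the Mediator kinase module, Slc2a3 the glucose transporter GLUT3 and Mical2 an actin-oxidising enzyme. Those of Fam107b, Slc2a3 and Mical2 lay inside the gene. All 6 of these genes had a gene-end peak in both lists.

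The strongest calls of the set were spread over its widths, and the 10 of highest -log10 p ranked from 9 to 261 by width. The highest -log10 p, 36.6, was that of a 2016 bp region 59.7 kb from Edil3, which encodes a secreted integrin ligand (chr13:89382932-89384947, fold 3.57). The nearest f/f peak lay 337.3 kb away. The region inside Hmox2, the constitutive haem oxygenase gene, followed with a -log10 p of 26.8 after that near BC048507, then those inside Cnbd2 (25.2), near Gm42427 (24.8) and inside Sh3bp4 (22.5). The region near Tmem150c (18.5), which overlapped the pseudogene Gm8091, that inside the presynaptic scaffold gene Bsn (18.1), that near Tmem123 (17.8) and that inside Hrh1 complete the 10 highest.

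The highest fold, 5.50, was that of the region near Gm42427 (chr5:44134506-44136869). It was followed by 4.19 inside Ppat, 11.9 kb from Paics, both genes of purine synthesis that lie side by side, and 3.96 near Mtnr1b, a melatonin receptor gene (chr9:15843931-15845938, -log10 p 14.3). The regions inside Cnbd2 (3.84), Maml3 (3.73), a Notch coactivator gene, Hmox2 (3.70) and the centrosomal gene Cep350 (3.66) came next. Those near Edil3, near Tmem123 (3.57) and near Ctsc (3.57) close the 10. Ctsc encodes cathepsin C, the protease that activates neutrophil granule proteases.

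The 28 regions at or above the list's median -log10 p lay inside a gene in 13 cases (46.4%), and the 272 weaker ones in 166 (61.0%). No f/f peak within 50 kb was found for 8 of the 28 (28.6%) and 46 of the 272 (16.9%). The 300 KO-alone distal peaks of highest -log10 p, a set that shares 6.33% of its members with the 300 widest, lay inside genes in 41.7%. The widest, the middle and the narrowest 100 of the 300 had a median -log10 p of 4.79, 4.5 and 4.58, and lay inside genes in 61%, 57% and 61%. At or above the list's median -log10 p were 11, 11 and 6 of them, and 22%, 17% and 15% had no f/f peak within 50 kb.

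In the share inside genes the regions resembled other distal peaks. Of the 300, 179 lay inside a protein-coding gene (59.7%, interval 54.0 to 65.1%), against 59.9% of the other KO-alone peaks, 60.6% of the equally wide KO peaks near an f/f peak and 59.7% of the 300 widest f/f-alone peaks. The median length of the genes that held them was 95.8 kb, against 93.2 kb for the equally wide KO peaks near an f/f peak and 145.9 kb for the f/f-alone regions. The median distance to the nearest gene end was 23.2 kb (order-statistic interval 18.4 to 27.1 kb), against 20.8 kb for the other KO-alone peaks, 19.1 kb for the equally wide KO peaks near an f/f peak and 35.6 kb for the f/f-alone regions. Over 100 kb from any gene end lay 38 (12.7%, 9.37 to 16.9%). This held for 11.6% of the other KO-alone peaks, 9.19% of the equally wide KO peaks near an f/f peak and 20.3% of the f/f-alone regions. Chromosome 15 held 4 of the 300 (1.33%) and 4.45% of the distal KO peaks, chromosome 1 held 26 (8.67% and 6.75%) and chromosome 6 held 23 (7.67% and 5.64%).

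**Figure D2:**
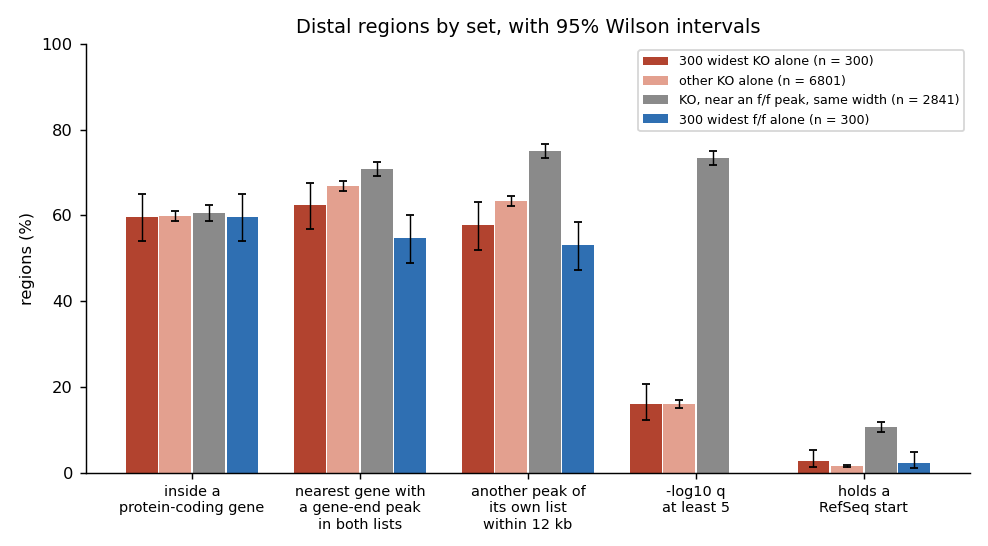
Percent of regions with each property, for the 300 widest KO-alone regions, the other KO-alone distal peaks, KO peaks of at least the same width near an f/f peak, and the 300 widest f/f-alone regions, chosen in the same way (no -log10 q bar, since heights were not compared between lists). Bars are shares and lines are 95% Wilson intervals. The shares inside genes lie between 59.7 and 60.6%, whereas a -log10 q of at least 5 was reached by 16% of the 300 and 73.5% of the equally wide peaks near f/f.

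The genes nearest to the regions were mostly marked in both libraries. There were 285 such genes, or 1.38% of 20665 protein-coding genes, 15 of them nearest to 2 regions and none to 3. The nearest gene had a peak within 1 kb of an end in both lists for 187 regions (62.3%, interval 56.7 to 67.6%). This held for 66.8% of the other KO-alone peaks, 70.9% of the equally wide KO peaks near f/f and 54.7% of the f/f-alone regions. Of all protein-coding genes, 49.1% were marked in both lists. A nearest gene marked in KO only was found for 15 regions (5%, 3.05 to 8.08%), where 2.74% of all genes are so marked, and one marked in f/f only for 4 (1.33%, 0.520 to 3.38%), where 2.83% are. These 4 were Angptl2, Rab15, Arhgap26 and Nxpe4, named after their values were seen. For 94 regions (31.3%, 26.3 to 36.8%) the nearest gene had no gene-end peak in either list. The same was found for 27.5% of the other KO-alone peaks, 22.8% of the equally wide KO peaks near f/f and 35.7% of the f/f-alone regions. Of the other KO-alone peaks, 3.29% had a nearest gene marked in KO only and 2.38% one marked in f/f only. Of the 300 widest f/f-alone regions, 1.33% had a nearest gene marked in KO only and 8.33% one marked in f/f only.

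The surroundings of the regions held more bases under KO than under f/f peaks in most cases. In the flanks, KO peaks covered a median of 4.80 kb and f/f peaks 3.97 kb, and the median of the differences (KO minus f/f) was 0.56 kb. KO covered more in 197 regions (65.7%, interval 60.1 to 70.8%), f/f in 75 (25%), and in 28 neither list had a peak there. Around the other KO-alone peaks, KO covered more in 60.5% (59.4 to 61.7%), with a median difference of 0.392 kb. Around the equally wide KO peaks near f/f, KO covered more in 59.5% (57.7 to 61.3%), with a median difference of 0.417 kb. Around the 300 widest f/f-alone regions f/f covered more in 52.3% and KO in 33.0%, with a median difference of -0.0435 kb. The KO list also had more peaks in all, 36553 against 33556 on chromosomes 1 to 19, and the part of this in the flank values was not tested.

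**Figure D3:**
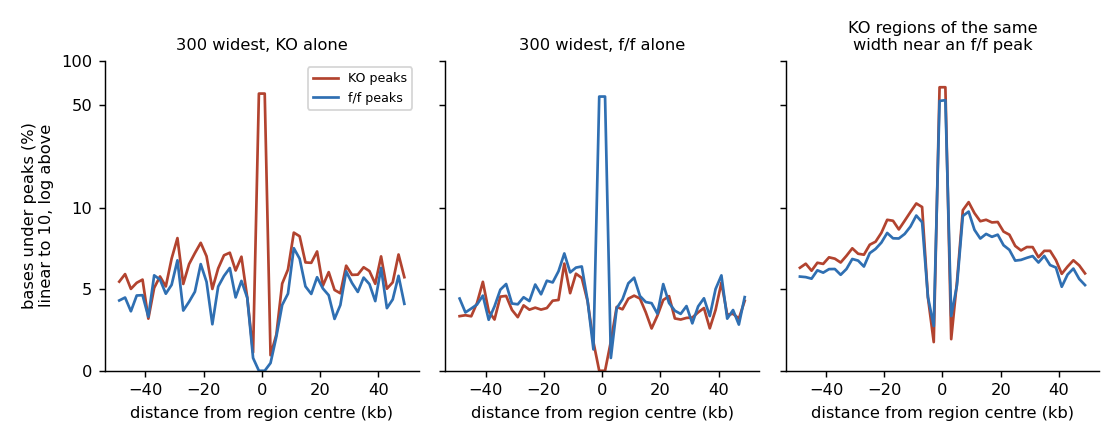
Mean percent of bases under KO (red) and f/f (blue) peaks in 2 kb bins up to 50 kb from the centre of the 300 widest KO-alone regions, the 300 widest f/f-alone regions and KO peaks of at least the same width near an f/f peak; the axis is linear to 10 and logarithmic above. The 0 of the other list at the centre of the first 2 panels follows from the choice of the regions, and 18 to 20 kb below the centre the KO-alone panel has 7.02% under KO and 5.45% under f/f peaks.

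The largest excess of KO over f/f bases in the flanks was 20.0 against 10.2 kb, at the region 3.52 kb from Ptbp3 (chr4:59465679-59468352). It lay 38.3 kb from the region inside Susd1, whose flanks held 20.9 and 14.2 kb. The largest excess of f/f was 7.49 against 2.66 kb, at the region inside Osbpl3, which encodes an oxysterol-binding protein. Another KO peak lay within 12 kb of 173 regions (57.7%, interval 52.0 to 63.1%), against 63.4% of the other KO-alone peaks and 75.1% of the equally wide KO peaks near f/f.

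All 17 regions with a fold under 2 had another KO peak within 12 kb, where 57.7% of the 300 did. Of the 17, 15 lay inside a gene (59.7% of the 300), and for 16 the nearest gene was marked in both lists (62.3% of the 300). They include those at B4galt6, Reep3, Ppm1f, Cdk6 and Susd1. None of them had a -log10 p at or above the list's median, but only 9.33% of the 300 did.

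**Figure D4:**
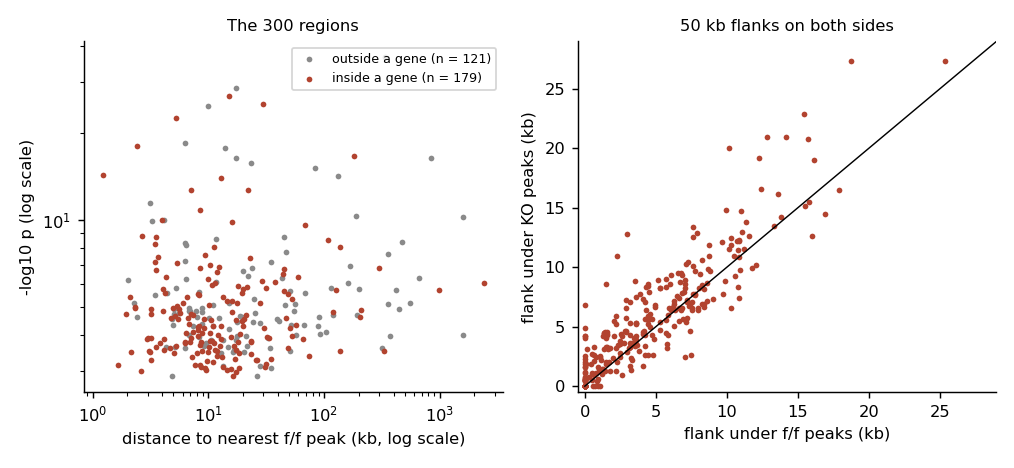
Left, distance from each of the 300 regions to the nearest f/f peak (kb, log scale) against its -log10 p (log scale), in red the 179 inside a gene and in grey the 121 outside. Right, kb of both 50 kb flanks under f/f against KO peaks, 1 point per region, with the line of equal cover; 197 points lie above it and 75 below.

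The gap to the nearest f/f peak had a median of 12.9 kb. It was 1 to 5 kb for 47 regions, 5 to 10 kb for 73, 10 to 50 kb for 126, 50 to 100 kb for 20, 100 to 1000 kb for 31 and over 1000 kb for 3. No f/f peak within 50 kb was found for 54 (18%, interval 14.1 to 22.7%), against 11.8% of the other KO-alone peaks (11.0 to 12.6%), and no KO peak within 50 kb of the 300 widest f/f-alone regions in 26.3% (21.7 to 31.6%). The 54 lay inside genes in 37.0% and had a nearest gene marked in both lists in 27.8%, where the other 246 had 64.6% and 69.9%. The split itself partly fixes the second contrast, since a close gene end marked in f/f would place an f/f peak within 50 kb. The median distance to a gene end was 68.5 kb for the 54 and 18.9 kb for the 246. For 28 regions neither list had another peak within 50 kb.

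The 300 regions fell into 294 stretches between neighbouring f/f peaks. A KO peak was counted in every stretch that it overlapped, also where it overlapped the f/f peak at the end of the stretch. The counts can therefore include KO peaks shared with f/f. In 54 stretches the region was the sole KO peak, 100 held 2 KO peaks, 113 held 3 or 4 and 27 held 5 or more. The most KO peaks, 10, lay in a 699.8 kb stretch of chromosome 2 with a region inside Stk39, a kinase gene of ion transport. Stretches with 9 lay at Adam19, a metalloprotease gene (330.5 kb, with 2 of the regions), on chromosome 4 with a region 106.9 kb from Ccdc171 (1358 kb) and near 4931408C20Rik (6017 kb, with 2 of the regions). In the Adam19 stretch the regions were 2866 and 2463 bp wide, with a -log10 p of 15.1 and 5.71, and Adam19 had a gene-end peak in KO only.

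Stretches over 1000 kb held 18 of the 300 regions (6%) and 3.91% of the other KO-alone peaks. For the 300 widest f/f-alone regions, by stretches without a KO peak, the share was 14.7%. Several of the 294 stretches around the KO-alone regions spanned megabases, and 16 were over 1000 kb long. The longest, 6125 kb on chromosome 6, held 4 KO peaks, among them a 3154 bp region inside Ccser1 that lay 2402 kb from the nearest f/f peak (-log10 p 6.05). A 2756 kb stretch of the same chromosome held 4, with a region of -log10 p 16.4 that lay 1209 kb from the end of Ndufa4, farther from a gene end than any other of the 300 (chr6:10689648-10691625). A 2292 kb stretch near Erbb4, a receptor kinase gene, held 2. The regions next in distance to a gene end lay 467.4 kb from Tbc1d32, 401.5 kb from the activin receptor gene Acvr2a, 396.4 kb from 4931408C20Rik and 391.3 kb from Med13l. The nearest f/f peak to any of these 5 lay 43.2 kb away, at Acvr2a.

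Regions seldom lay close to each other. Within 12 kb of one another lay 3 pairs, at Pde11a, Fam120b and B4galt6, and within 50 kb 12 pairs, which hold 24 of the 300. No group of 3 or more was found within 50 or 100 kb. The closest pair lay inside Fam120b (chr17:15409828-15420123), with a -log10 p of 14.0 and 3.82. The Pde11a pair (13.2 kb from end to end, -log10 p 3.61 and 6.13) lay inside that cyclic nucleotide phosphodiesterase gene, which had a gene-end peak in KO only.

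**Figure D5:**
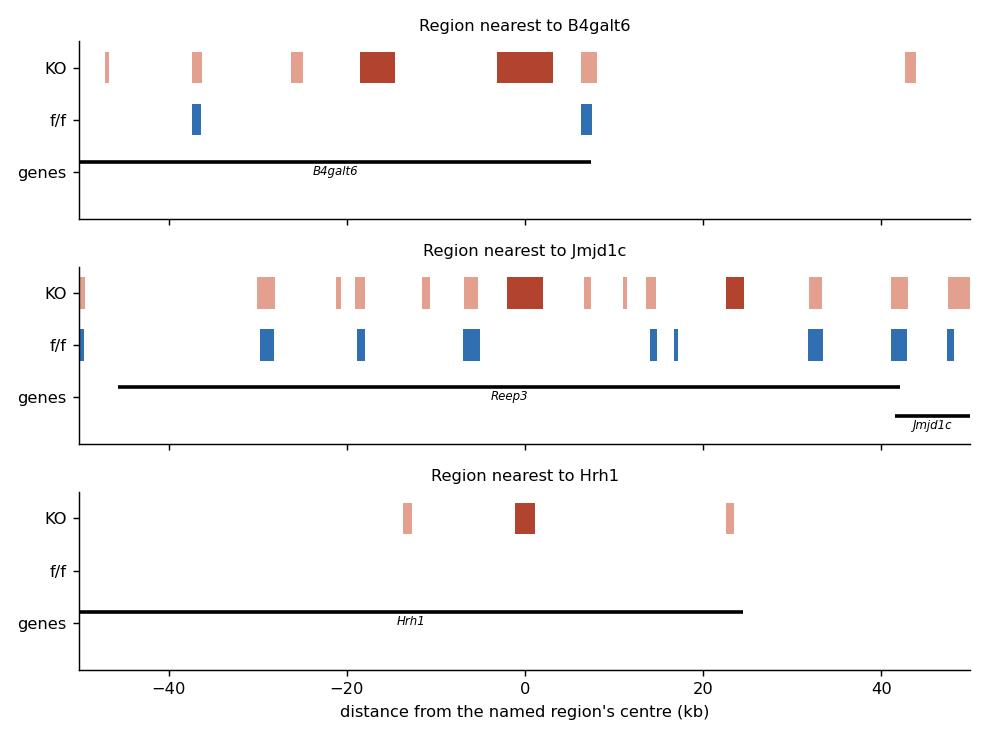
Peaks of the KO (red) and f/f (blue) lists and protein-coding genes (black) within 50 kb of the widest region nearest to B4galt6, Jmjd1c and Hrh1, by distance from its centre in kb. Dark red bars are among the 300 regions. The Hrh1 window has 3 KO peaks and no f/f peak, the B4galt6 window 7 and 2, and the Jmjd1c window 14 and 9.

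Genes from 22 lists of blood lineages, leukaemia and drug response were then sought near the regions. Of 480 listed genes on chromosomes 1 to 19, 8 were the nearest gene of a region, where 1.38% of all protein-coding genes were. Within 50 kb of a region lay 14, where 2.37% of all protein-coding genes did, and within 100 kb 24 (5%), where 4.05% did. The lists with the most genes within 100 kb were those of B cell genes (4 of 17), MLL-fusion targets (3 of 26), apoptosis (3 of 22) and stromal, endothelial and epithelial genes (3 of 20). The B cell genes were Cd79a, Ebf1, Igll1 and Vpreb1, none of them a nearest gene, and Igll1 and Vpreb1 share the Ppm1f region. No gene within 100 kb was found for 25 neutrophil granule, 24 monocyte and macrophage, 18 erythroid, 26 T and NK cell, 24 AP-1, EGR and KLF, 23 interferon response and 27 drug efflux and metabolism genes.

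Among MLL-fusion targets, Jmjd1c and Cdk6 were nearest genes of regions, and both had a gene-end peak in both lists. Jmjd1c, which encodes a histone demethylase family protein needed by MLL-AF9 leukaemia cells, had 2 regions, both inside its neighbour Reep3 (4045 bp, -log10 p 3.52, and 2019 bp, 7.12). They lay amid shared peaks. The flanks of the wider region held 19.2 kb under KO and 12.3 kb under f/f peaks. The Cdk6 region lay inside the gene of this G1 cyclin-dependent kinase (chr5:3424008-3426340, 2333 bp, -log10 p 8.83), with 11 f/f peaks within 50 kb and 27.3 kb of its flanks under KO and 18.8 kb under f/f peaks.

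Of GATA2's known partners, Runx1 was the nearest gene of 1 region, 47.1 kb away (1983 bp, -log10 p 3.63). Fli1 lay 64.1 kb from a region whose nearest gene was Ets1 (3144 bp, 4.199). Both genes had a gene-end peak in both lists. Gata2 itself had no region within 100 kb. Kit, the receptor of stem cell factor, had the region of lowest -log10 p of all 300 (2.89, 31.3 kb away), with 2.59 kb of flanks under KO and 4.78 kb under f/f peaks.

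Of the apoptosis genes, Pmaip1, which encodes the BH3-only protein NOXA, was nearest to 2 regions, 34.7 and 43.9 kb away (-log10 p 3.44 and 8.24). Their flanks held 6.92 and 9.80 kb under KO and 7.43 and 10.9 kb under f/f peaks, so that f/f covered more at both. Birc3, a ubiquitin ligase gene that restrains cell death, lay 42.1 kb from the Tmem123 region, and Bcl2l1, the gene of BCL-XL, 80.5 kb from another. Spry1, an inhibitor of RAS-ERK signalling, had a region 6.97 kb away (-log10 p 3.997) and Vwf, the von Willebrand factor gene, one 26.3 kb away (3.86). Cdkn1a, the p21 gene, lay 66.2 kb from a region near Srsf3 (2057 bp, -log10 p 9.92) and had a gene-end peak in KO only.

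At the edge of the 300, the last 3 regions were 1969, 1967 and 1966 bp wide, near Gm34362, Adtrp and Ctsc, with a -log10 p of 3.78, 6.86 and 8.36. The first 3 left out were 1966, 1965 and 1964 bp wide, near Numb, Tprg and Rbm20, with 3.94, 7.38 and 19.4. The order of the 2 peaks of 1966 bp was set by position.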

How the data were processed

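Both lists were deposited by the authors as broad peaks of 1 library each. BWA, SAMtools, MACS2 and the build mm10 are named, per the submitters' processing notes. Versions, options and any control library: not given in the sources used here. Each peak's fold enrichment (a ratio), -log10 p, -log10 q and score are deposited values, and the score was not used. Fold, p and q values were not compared between lists. Widths depend on the authors' calls, and a deeper library can give more and wider peaks.

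Genes came from RefSeq, GRCm38.p6 (20665 protein-coding genes on chromosomes 1 to 19), as starts and ends without exons. The left-out starts were chromosome 4 below 4.5, 6 below 4.6, 7 below 10.5, 13 below 4.3, 18 below 5.4 and 19 below 4.2 Mb. Distances are gaps between intervals. bedtools 2.31.1 also gave 7101 KO-alone peaks, and the selection was checked on simulated data. Python 3.11.15 and pandas 2.3.3 were used.

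Regions named are the 15 widest, the 10 of highest fold and of highest -log10 p, the 5 farthest from a gene, the 5 in the longest stretches, pairs, edge cases and nearest genes in the 22 lists. Regions and lists were chosen with earlier results of these data known; Gm31603, Gm41253, Rab15, Irf2bp2, Ptbp3, Susd1, Osbpl3, Stk39, Ccdc171, Adam19, Fli1, Birc3, Bcl2l1, Cdkn1a and the B cell genes were named after their values were seen. Not every gene counted in a list is reported here by name. Alternatives were other gaps, thresholds, rankings, numbers of regions and windows. Motifs were planned for whole regions but sought, after the data were seen, only before RefSeq starts; the rest of the sequence was not analysed here.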

Additional observations from a re-analysis of the deposited data

How the results depend on the processing

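Where an alternative only tightens a cutoff, the share of the 300 kept is the share that passes it. These kept shares therefore follow from the cutoffs chosen and are no separate evidence on how stable the set is. Of the 300, 99% were kept when any gap to f/f counted as alone, 84.3% with over 5 kb, 60% with over 10 kb, 85.3% with the same number of peaks per list (33556), 91.3% when distal meant over 5 kb and 95% with the chromosome starts kept. A -log10 q of at least 5, in KO or in both lists, kept 16%, a fold of at least 3 kept 13.3%, ranking by fold 1%, ranking by -log10 p 6.33%, and 100 regions 33.3% by construction. The KO-alone distal peaks numbered 3627 with over 10 kb, 1137 with -log10 q of at least 5 in KO, 2682 with it in both and 2690 with 3-fold. The share inside genes was 52.7% with over 10 kb, 47.3% with -log10 q of at least 5 in KO, 49% with 3-fold, 37% ranked by fold and 41.7% by -log10 p. The median distance to a gene end was 30.7 kb with over 10 kb, and within its interval under the other 12 alternatives. Another KO peak within 12 kb was found for 52% with over 5 kb, 35.3% with over 10 kb, 36.3% and 50% with -log10 q of at least 5 in KO and in both, 34% with 3-fold and 47% ranked by fold. It was found for 17.7% within 5 kb and 89.3% within 50 kb. The nearest gene was marked in both lists for 51.3% with over 10 kb, 49.3% with -log10 q of at least 5 in KO, 48.7% with 3-fold, 54% ranked by fold and 52.3% by -log10 p, and for 68% and 74.7% with gene-end windows of 2 and 5 kb. Listed genes numbered 14 within 50 kb and 24 within 100 kb. The cause of moves in values other than the share kept was not tested. No paired analysis was possible because each genotype has 1 library. Depth is unknown, so that weak calls missing from f/f cannot be told from calls missed there.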

Other observations

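Few regions held other annotated features. A microRNA hairpin, Mir761, lay in 1 of the 300, a 2020 bp region inside Nrd1 (-log10 p 5.26), which encodes the metalloprotease nardilysin. Pseudogenes overlapped 2 regions (0.667%, interval 0.183 to 2.40%), against 1.38% of the other KO-alone distal peaks (1.13 to 1.69%) and 1.51% of the equally wide KO peaks near an f/f peak (1.13 to 2.03%).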
